A study of Mus musculus with 3 samples.

Results

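The mouse genes of the mitochondrial respiratory chain were described in 2 epiblast stem cell (EpiSC) lines and 1 embryonic stem cell (ESC) line. Every probe was taken whose gene symbol starts with Ndufa, Ndufb, Ndufc, Ndufs, Ndufv, Sdh, Uqcr, Cox4 to Cox8 or Atp5, which gave 111 of 25697 probes and 89 of 16593 gene symbols. Of these symbols, 79 name subunits of complexes I to V, 9 name assembly factors that share a prefix (Ndufaf1, 3, 4, 5 and 7 and Sdhaf1 to 4), and 1 is the pseudogene Ndufs5-ps. The choice used symbols and no measured value.

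The respiratory chain passes electrons from NADH and succinate to oxygen across the inner mitochondrial membrane. NADH dehydrogenase (complex I) and succinate dehydrogenase (complex II) feed ubiquinone, the cytochrome bc1 complex (III) reduces cytochrome c, and cytochrome c oxidase (IV) reduces oxygen, while ATP synthase (V) uses the proton gradient that I, III and IV build. Nuclear genes encode most subunits, and several complex IV and V subunits exist as isoforms from separate genes. Mouse ESC are known for using both respiration and glycolysis, and EpiSC for relying more on glycolysis.

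E3 and T9 are the EpiSC lines, cells that resemble the epiblast of the implanted embryo, grown on inactivated CF1 mouse embryonic fibroblasts in knockout serum replacement medium with FGF2 at 5 ng/ml. OG2 is the ESC line, resembling the preimplantation epiblast, grown on gelatin in serum replacement medium with PD0325901 at 1 uM (an inhibitor of MEK), CHIR99021 at 3 uM (an inhibitor of GSK3) and LIF at 1000 U. The genetic background was hybrid for E3 and OG2 and 129 for T9. EpiSC were detached with collagenase IV to leave most feeders behind, and OG2 was collected straight from its dish. The effects of cell type, of medium, of feeders and of harvest therefore cannot be told apart. For T9 against OG2, and for T9 against E3, genetic background adds to what cannot be told apart. There was 1 array per line, hence 2 arrays against 1 for EpiSC against ESC. The only spread within a group was that between E3 and T9. In limma each probe's spread was drawn toward a value pooled over all 12603 tested probes. The p-values, standard errors and intervals below therefore rest largely on that pooled value.

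The lines matched their labels by marker genes. The summed linear level of 5 EpiSC markers was 7585 in E3 and 5556 in T9, compared with 405 in OG2, and that of 6 ESC markers was 93.6 in E3 and 163 in T9, compared with 10625 in OG2. Of 15 fibroblast markers, detection was reached by 5 in E3, 6 in T9 and 8 in OG2, with summed levels of 495 to 853 in EpiSC against 3178 in ESC, of which Acta2 was the most abundant. Col1a2, Col3a1, Col5a2, Col6a2, Postn, Pdgfrb and Twist2 were not above background on any array, and the part of feeder cells in the differences below was not tested. Between 10768 and 11171 probes were detected per array (detection p under 0.01), and 95 of the 111 respiratory chain probes on each. The bead standard error of a respiratory chain probe had a median of 3.57% to 4.05% of its signal, which covers error within an array only.

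Promoter sequence is shown for complex IV, whose median lay farthest below ESC. The 4 printed are the subunit genes detected on every array with the lowest EpiSC minus ESC differences among those with a RefSeq promoter window (GRCm38.p6). Each run gives the 200 bases before the annotated start, 5′ to 3′ on the gene's strand, with matches to any searched motif in capitals. The windows are Cox6b2 at chr7:4753095-4753294 (minus strand), Cox5a at chr9:57521032-57521231 (plus), Cox8a at chr19:7217617-7217816 (minus) and Cox6a1 at chr5:115348959-115349158 (minus).
Cox6b2: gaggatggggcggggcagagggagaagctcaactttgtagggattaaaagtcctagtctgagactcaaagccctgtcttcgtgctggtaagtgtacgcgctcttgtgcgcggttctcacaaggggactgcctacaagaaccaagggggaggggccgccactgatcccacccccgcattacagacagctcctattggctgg
Cox5a: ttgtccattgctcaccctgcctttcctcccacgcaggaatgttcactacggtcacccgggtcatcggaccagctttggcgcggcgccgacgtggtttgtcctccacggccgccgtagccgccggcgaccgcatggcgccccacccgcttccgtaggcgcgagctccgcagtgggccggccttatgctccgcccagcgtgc
Cox8a: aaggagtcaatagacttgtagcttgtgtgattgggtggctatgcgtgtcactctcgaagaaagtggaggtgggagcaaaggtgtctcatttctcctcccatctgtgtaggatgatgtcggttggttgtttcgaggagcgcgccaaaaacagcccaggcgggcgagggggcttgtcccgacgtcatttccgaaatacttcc
Cox6a1: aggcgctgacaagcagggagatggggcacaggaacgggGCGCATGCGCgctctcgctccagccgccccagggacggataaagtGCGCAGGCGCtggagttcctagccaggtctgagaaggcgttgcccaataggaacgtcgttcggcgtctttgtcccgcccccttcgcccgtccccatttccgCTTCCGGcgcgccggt

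The motifs searched on both strands were the NRF1 consensus, GABP (CCGGAAG, the ETS core with its flank), YY1 (AAGATGGC), ERR (AAGGTCA) and the E-box (CACGTG). Cox6a1 alone among the 4 held any, with NRF1 matches starting 162 and 117 bases before the start (the first reads on both strands) and a GABP match on the opposite strand starting 16 bases before it. In the full 250 bases before the start, 10 of 65 subunit genes with a window held the NRF1 consensus (15.4%). The share was 9.66% of 7083 tested genes and 4.23% of all 27025 RefSeq genes with a window. A gene counted when any of its windows matched. The GABP letters stood in 12 subunit genes (18.5%), against 16.1% of tested genes and 7.83% of all genes with a window. YY1 was found in 1 subunit gene (1.54%, against 2.56% of tested genes and 1.83% of all genes with a window). ERR was found in 4 (6.15%, against 3.57% and 4.7%) and the E-box in 6 (9.23%, against 10.1% and 6.86%). Complex V held 4 of the 10 NRF1 matches among 14 genes, complex I 4 among 31 and complex IV 1 among 13. These are letter matches in a window and no evidence of a bound factor.

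Of the 111 probes, 92 were detected on all 3 arrays, 7 on some and 12 on none. The 99 probes detected somewhere were tested and covered 82 symbols, among them 72 of the 79 subunit genes. Ndufs1 of complex I, Uqcrq and the Rieske iron-sulfur protein gene Uqcrfs1 of complex III, Cox6a2, Cox7b2 and Cox8b of complex IV and Atp5k of complex V had no probe above background on any array. Cox6a2 and Cox8b are isoforms of heart and skeletal muscle and Cox7b2 is a testis isoform. The other five probes below background everywhere belonged to Sdhb, Sdhc, Cox6b2 and Ndufaf7, each of which had another probe that was detected.

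No respiratory chain probe passed the threshold between EpiSC and ESC. With limma and Benjamini-Hochberg adjustment at 0.05, 0 of 99 member probes were called, beside 1.15% of all 12603 tested probes (145, of which 36 were higher and 109 lower in EpiSC). Scaling by each array's median gave 110 higher and 186 lower calls over all probes, cyclic loess 122 and 222, and a mean-variance trend 92 and 164, with 0 calls among the members each time. The smallest adjusted p of a member probe in limma was 0.0894. Among all called probes the smallest fold was 6.003, so the absence of calls does not show that these genes were equal. At an unadjusted limma p under 0.05, 6 member probes stood apart, 3 higher in EpiSC (2 of Ndufv3 and 1 of Sdhaf3) and 3 lower (Cox6b2, Cox4i1 and Cox8c). Cox8c entered the test only through OG2, where it was higher, so its count says little. The 6 are 6.06% of the members tested, beside 23.2% of all tested probes.

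The subunit genes lay close together. By size, Ndufv3 alone of the 72 had an EpiSC mean 2-fold or more above ESC, and Cox6b2 alone lay that far below, together 2.78%, beside 19.2% of all 8688 named genes (10.3% higher and 8.95% lower). Against OG2 alone, E3 had 1 subunit gene past 2-fold each way and T9 had 1 higher and 2 lower (Cox6b2 and Ndufb2), beside 20.6% of all genes for either line. The 95% limma intervals of 68 subunit genes included 0, and those of 34 lay wholly within 2-fold either way. The standard error of a member's difference ran from 0.25 to 0.45 on the log2 scale. The lowest, for Atp5j2, came with an E3 minus T9 difference of 0. It thus reflects the spread pooled over all probes and not that gene's own.

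The median EpiSC minus ESC difference on the log2 scale was -0.13 over the 72 subunit genes (SD over genes 0.41, range -1.42 to 1.33), beside 0.05 over all named genes (SD 0.94). It was -0.09 for E3 and -0.17 for T9, and 44 genes lay below 0 (61.1%) and 28 above. Of all named genes, 47.1% lay below 0. The ESC level stood above both EpiSC levels for 37 of the 72 genes, beside 38.7% of all genes, and below both for 20, beside 42.9%. For the other 15 it lay between them. Array signal follows RNA in the pooled lysate, so fewer cells of a type and less RNA per cell cannot be told apart.

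**Figure D1:**
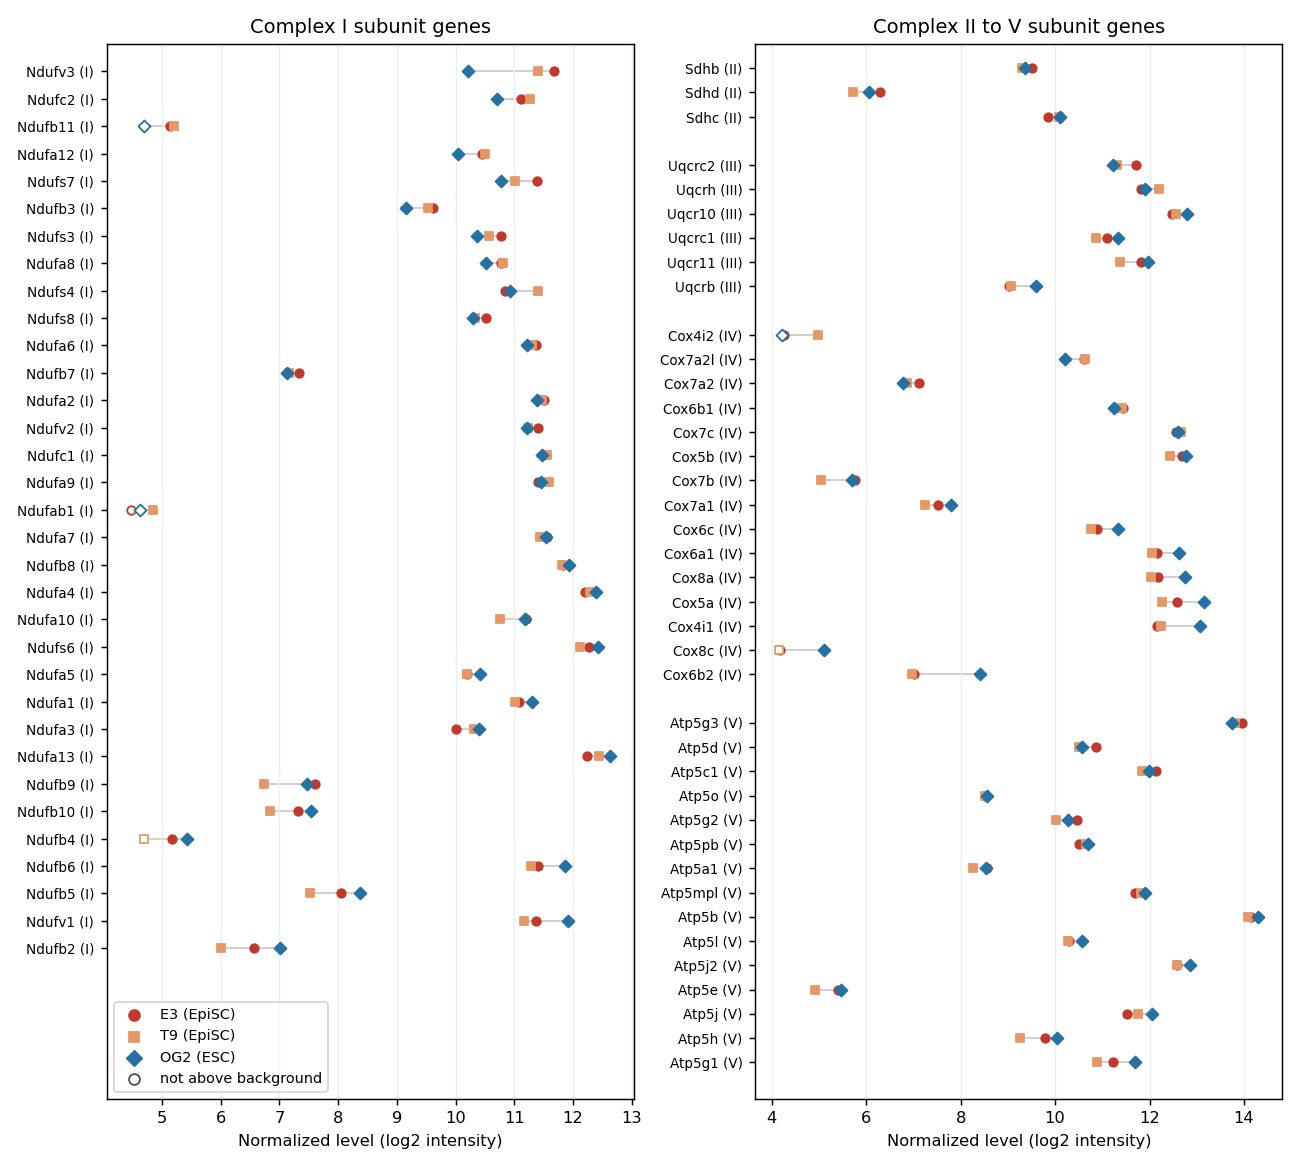
Normalized log2 intensity (x axis) of the 72 tested subunit genes in E3 and T9 (EpiSC) and OG2 (ESC), with complex I on the left and complexes II to V on the right, ordered within a complex by the EpiSC minus ESC difference; each mark is 1 array and open marks were not above background. Within a gene the 3 marks mostly lie close together, and Ndufv3 and Cox6b2 show the widest gaps between EpiSC and ESC.

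By complex, the median difference was 0.03 for complex I (33 of 34 subunit genes tested), -0.05 for complex II (3 of 3), -0.31 for complex III (6 of 8), -0.42 for complex IV (15 of 18) and -0.15 for complex V (15 of 16). The numbers below and above 0 were 16 and 17 in complex I, 2 and 1 in II, 4 and 2 in III, 10 and 5 in IV, and 12 and 3 in V. Of all named genes, 47.1% lay below 0. For E3 minus OG2 the medians were 0.0034 for complex I, 0.14 for II, -0.18 for III, -0.28 for IV and -0.16 for V. For T9 minus OG2 they were 0.0082 for complex I, -0.06 for II, -0.35 for III, -0.58 for IV and -0.26 for V. The medians of III, IV and V lay below 0 in each EpiSC line, and those of complex II took opposite signs, but both comparisons share the single OG2 array. The complex I median turned to -0.068 with cyclic loess scaling and to -0.0013 on probes detected on all 3 arrays, and that of complex II to 0.0051 with median scaling.

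**Figure D2:**
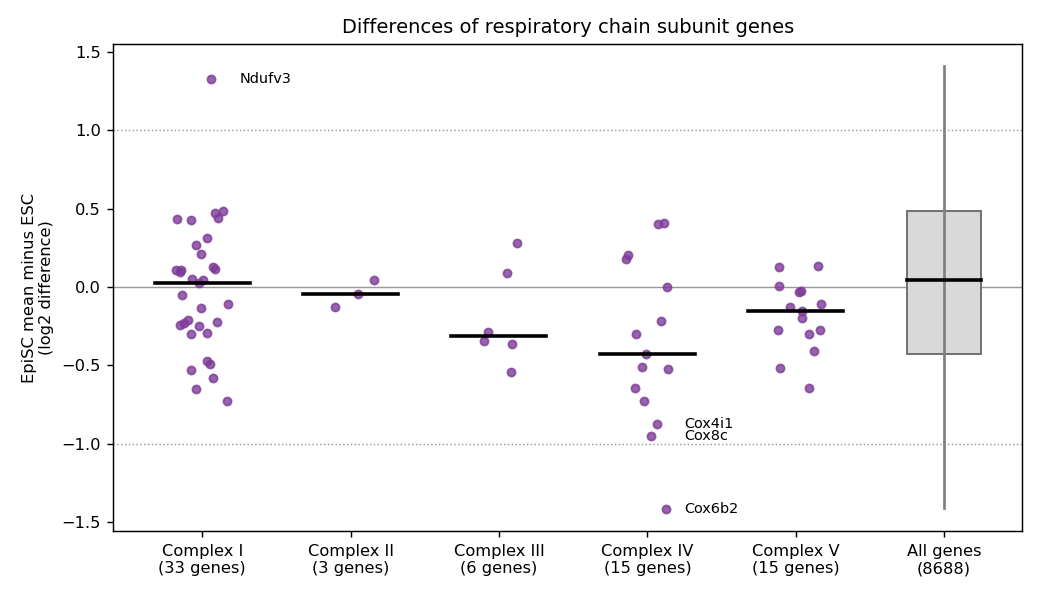
EpiSC minus ESC difference (log2, y axis) of each tested subunit gene by complex (bars, medians; dotted lines, 2-fold), beside the spread of all 8688 named genes (box, quartiles at -0.43 and 0.49; line, 5th to 95th percentile, -1.41 to 1.41). Points of complex IV and V lie mostly below 0 and those of complex I on both sides.

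Of the complex IV genes, 13 were detected on all arrays, with a median of -0.42. Of these, 9 lay below 0, beside 48.5% of all named genes detected on all arrays. The limma intervals of Cox6b2 and Cox4i1 lay wholly below 0. Cox6b2, the testis isoform of a subunit at the cytochrome c side of the enzyme, had a signal of 195 ± 10.6 in E3 and 195 ± 8.38 in T9, compared with 391 ± 17.9 in OG2 (± bead standard error). Both EpiSC arrays were lower than OG2 and within bead error of each other. The normalized difference was -1.42 ± 0.25 (SE), a 2.67-fold lower level, with a 95% interval of -2.12 to -0.72 and a limma adjusted p of 0.0894. A second Cox6b2 probe was not above background on any array. Its somatic counterpart Cox6b1 had 2932 in E3 and 2819 in T9, compared with 2442 in OG2, a difference of 0.18, while its second probe gave -0.09.

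Cox8c, a testis isoform of subunit VIII, was detected only in OG2, with a signal of 78.0 ± 2.50 in E3 and 76.3 ± 2.35 in T9, compared with 98.4 ± 4.96 in OG2. With the EpiSC side set to the lowest detected level of each array, its level was at least 1.23-fold lower in EpiSC. It was tested only because OG2 was above background, so its limma p and interval compare OG2 with background and support nothing here. The ubiquitous Cox8a had 5139 ± 303 in E3 and 4318 ± 172 in T9, compared with 6272 ± 197 in OG2, a difference of -0.64 ± 0.26 (SE). Both EpiSC arrays were below OG2 for Cox8a, and the muscle isoform Cox8b was not above background on any array.

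Cox4i1 encodes the ubiquitous form of subunit IV, the largest nuclear-encoded subunit of the enzyme. Its signal was 5038 ± 159 in E3 and 4812 ± 181 in T9, compared with 7807 ± 244 in OG2. The EpiSC arrays lay near each other and below OG2, with a difference of -0.87 ± 0.25 (SE), a 1.83-fold lower level, a 95% interval of -1.58 to -0.17 and a limma adjusted p of 0.164. Cox4i2, the isoform known from lung and from low oxygen, was detected only in T9, with 82.3 in E3 and 98.4 in T9, compared with 78.8 in OG2. It entered the test only through T9, so its difference of 0.41, counted above 0 in complex IV, says little.

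Cox5a, a matrix-side subunit, had 6828 ± 206 in E3 and 4883 ± 159 in T9, compared with 8240 ± 272 in OG2, a difference of -0.73 ± 0.28 (SE) with a limma adjusted p of 0.238. Both EpiSC arrays were below OG2, but E3 and T9 also differed from each other by 0.31 (log2). The 2 probes of Cox6a1, the somatic form of subunit VIa whose promoter is printed above, agreed within their standard errors at -0.52 and -0.60. Cox6c lay at -0.51, the heart and muscle isoform Cox7a1 at -0.42, Cox7b at -0.30 and Cox5b at -0.22. The intervals of all these genes included 0.

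The remaining genes of complex IV lay at or above 0. Cox7c was at 0.0013, Cox7a2 at 0.20 and Cox7a2l, which joins complexes III and IV into supercomplexes, at 0.40. Cox7a2l had 1700 in E3 and 1644 in T9, compared with 1221 in OG2, so both EpiSC arrays were above OG2. Leaving out the isoforms of restricted tissues, the complex IV median was -0.30 over 11 genes, with 7 below 0, beside 47.1% of all named genes. For these 11 genes the lines differed, with a median of -0.09 for E3 minus OG2 and -0.58 for T9 minus OG2. Counting Ndufa4, a protein placed in complex IV by later work and named after complex I, gave an EpiSC minus ESC median of -0.36 over 16 genes. This alternative was chosen after seeing the data.

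**Figure D3:**
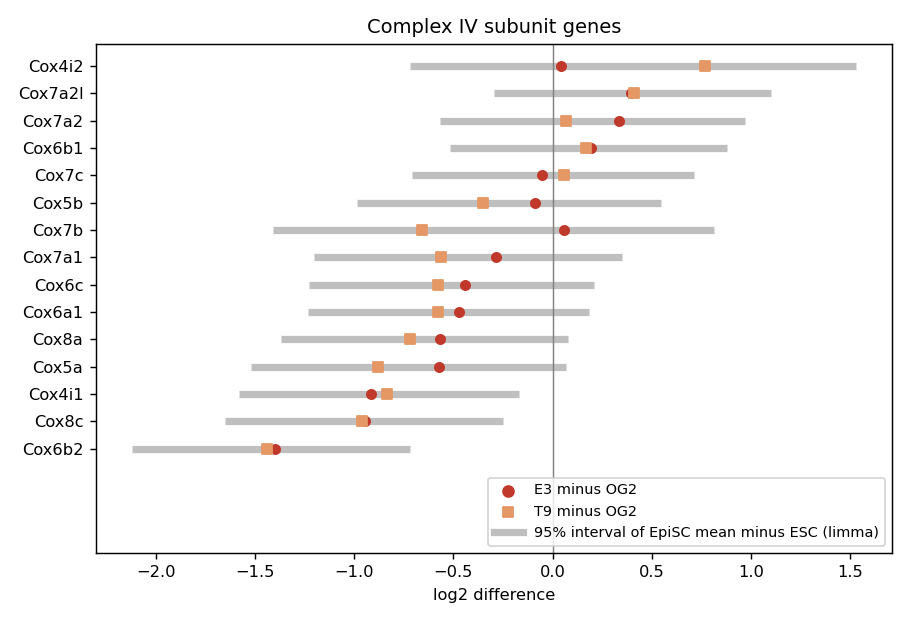
Log2 difference from OG2 of E3 (circles) and T9 (squares) for the 15 tested complex IV subunit genes, with the 95% limma interval of the EpiSC mean minus ESC as a grey bar. The bars of Cox6b2, Cox8c and Cox4i1 end below 0 and the other 12 cross it; Cox8c was not above background in either EpiSC line.

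Within complex I, Ndufv3 stood apart from all other subunits. It encodes a small accessory protein of the NADH-oxidising module, made in a short and a long splice form. Its brightest probe had 3491 ± 134 in E3 and 2803 ± 117 in T9, compared with 1214 ± 51.4 in OG2. Both EpiSC arrays were above OG2, with a difference of 1.33 ± 0.28 (SE), a 2.52-fold higher level, a 95% interval of 0.56 to 2.10 and a limma adjusted p of 0.106. A second probe gave 2352 in E3 and 1932 in T9, compared with 925 in OG2, which is 2.25-fold higher with a limma adjusted p of 0.125. The third probe was dim and even, at 115 in E3 and 119 in T9, compared with 110 in OG2, a difference of 0.11. The 3 probes therefore spread over 1.22 on the log2 scale, the widest range of the 13 member genes with several tested probes, and their mean was 0.87.

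**Figure D4:**
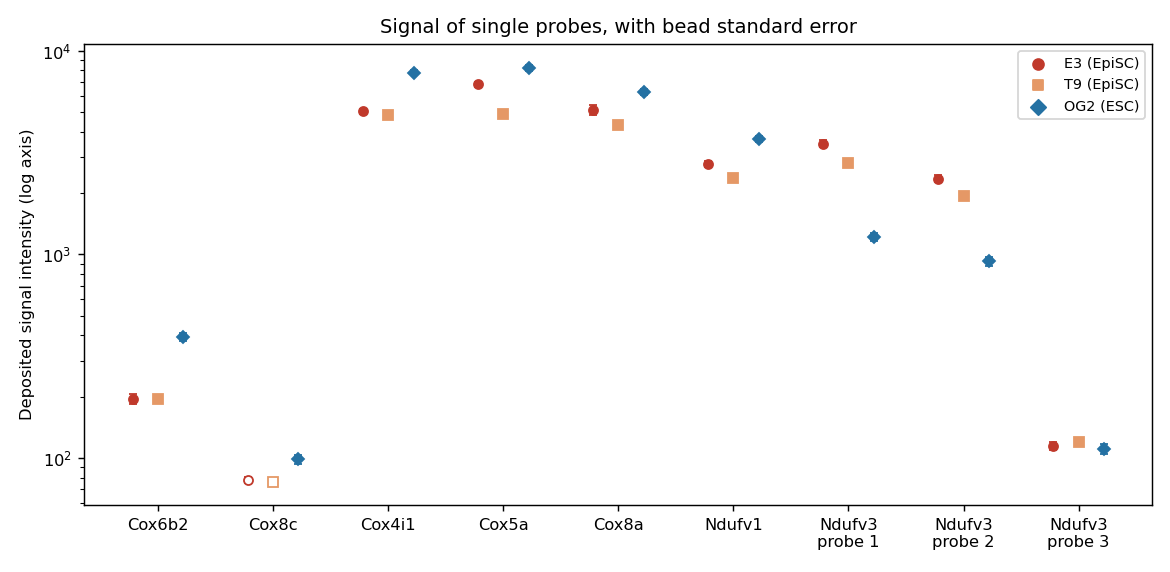
Deposited signal intensity (log axis) of single probes in E3, T9 and OG2, with the bead standard error as bars, mostly smaller than the marks; open marks were not above background. Signals are lower in both EpiSC lines for Cox6b2, Cox4i1, Cox5a, Cox8a and Ndufv1, higher for the first 2 Ndufv3 probes, and level for the third.

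The other Ndufv genes lay closer to OG2 than Ndufv3. Ndufv1, which binds NADH and the flavin, had 2778 in E3 and 2369 in T9, compared with 3682 in OG2, a difference of -0.65 ± 0.27 (SE) with a limma adjusted p of 0.251. Ndufv2, an iron-sulfur protein beside it, lay at 0.10. Of the Ndufs genes, which hold most of the iron-sulfur proteins of the peripheral arm, 4 of 5 tested lay above 0. Of all 8688 named genes, 4595 did so. The Ndufs median was 0.21. Ndufs7 was at 0.43, Ndufs3 at 0.31 and Ndufs8 at 0.13, against -0.23 for Ndufs6. The 4 probes of Ndufs4, an accessory subunit whose loss causes a Leigh-like disease in mice, lay between 0.02 and 0.21.

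Most Ndufb genes, whose products sit in the membrane arm, lay below 0, with 7 of 10 there, beside 47.1% of all named genes. Their median was -0.39, with -0.17 for E3 minus OG2 and -0.65 for T9 minus OG2. Ndufb2 had 161 in E3 and 132 in T9, compared with 190 in OG2, a difference of -0.73 ± 0.35 (SE). Ndufb5 lay at -0.58, Ndufb6 at -0.53, Ndufb4 at -0.49 and Ndufb10 at -0.47, while Ndufb11 was at 0.47 and Ndufb3 at 0.43. Ndufb4 was detected in E3 and OG2 only. The brighter Ndufb11 probe was detected in E3 and T9 only, with 102 in E3 and 104 in T9, compared with 90.5 in OG2. Against the lowest detected level of OG2 it was at least 1.23-fold higher in EpiSC. It entered the test only through the EpiSC lines, where it was higher, so this bound says little. The second Ndufb11 probe was detected in E3 only, with 95.6 in E3, 88.1 in T9 and 83.7 in OG2, and gave no such bound. Intervals of all 10 genes included 0.

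E3 was above T9 for 9 of the 10 Ndufb genes, beside 48 of 72 subunit genes and 4382 of 8688 genes, with a median E3 minus T9 difference of 0.33. This pair has no test, and none of the 10 was 2-fold apart. The 13 tested Ndufa genes had a median EpiSC minus ESC difference of -0.05, from -0.29 for Ndufa13 to 0.44 for Ndufa12. Ndufc2 had 2386 in E3 and 2510 in T9, compared with 1658 in OG2, a difference of 0.49 with both EpiSC arrays above OG2, and Ndufc1 was at 0.05. Ndufab1, the mitochondrial acyl carrier protein, was detected in T9 only. The pseudogene Ndufs5-ps was at 0.06, and whether its probe also binds the transcript of the parent gene was not tested.

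In complex II, Sdhb, the iron-sulfur subunit, had 812 in E3 and 708 in T9, compared with 702 in OG2, a difference of 0.04, and its second tested probe gave -0.29. The membrane anchors Sdhc and Sdhd lay at -0.13 and -0.05. In complex III, Uqcrb had 600 in E3 and 612 in T9, compared with 807 in OG2, and at -0.54 ± 0.25 (SE) it was the lowest of the 6 tested. Both EpiSC arrays were below OG2 for Uqcrb. Uqcr11 lay at -0.36, Uqcr10 at -0.28 and the hinge protein gene Uqcrh at 0.09. The core proteins went apart, with Uqcrc1 at -0.34 and Uqcrc2 at 0.28.

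In complex V, 12 of 15 genes lay below 0, beside 47.1% of all named genes. All 12 did so by less than 2-fold. The catalytic beta subunit gene Atp5b had 19268 in E3 and 17807 in T9, compared with 18462 in OG2, a difference of -0.20, and OG2 lay between the EpiSC arrays in signal. Atp5a1, the alpha subunit, was at -0.13 and Atp5c1, the gamma subunit of the rotor, at 0.01. The 3 genes for the membrane ring, Atp5g1, Atp5g2 and Atp5g3, encode the same mature protein. Atp5g1 had 2545 in E3 and 1990 in T9, compared with 3249 in OG2, a difference of -0.64 ± 0.29 (SE), while Atp5g2 was at -0.03 and Atp5g3 at 0.14. The peripheral stalk subunit Atp5h lay at -0.52, with 967 in E3 and 694 in T9, compared with 1088 in OG2. The 3 probes of Atp5j, another stalk subunit, lay at -0.68, -0.64 and -0.41. The middle one had 76.9 in E3 and 84.1 in T9, compared with 93.7 in OG2, and was detected in OG2 only. It entered the test only through OG2, where it was higher, so its difference supports nothing here. Against the lowest detected level of the EpiSC arrays it was at least 1.05-fold lower in EpiSC. Atp5d, the delta subunit, was at 0.13.

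Assembly factors help build the complexes and are not part of the finished enzymes. The 9 among the members had a median of 0.35, with 7 above 0, beside 4595 of all 8688 named genes. Sdhaf3, which helps mature the iron-sulfur subunit of complex II, had 253 in E3 and 280 in T9, compared with 175 in OG2, a difference of 0.79 ± 0.26 (SE) with a limma adjusted p of 0.192. Sdhaf1 was at 0.71, Ndufaf4 at 0.45 and Ndufaf1 at -0.51. Over a wider list of assembly factors for all complexes, 34 of 44 entries were tested and the median was 0.05, with 18 above 0 and 16 below. None of the 34 passed the limma threshold. At an unadjusted limma p under 0.05, 2 were higher (Foxred1 at 0.88 and Sdhaf3) and 2 lower (Acad9 at -0.98 and Lrpprc at -0.78). Over all tested probes the share at that threshold was 23.2%.

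The EpiSC lines differed little from each other in these genes. Over the 72 subunit genes the median E3 minus T9 difference was 0.11 and its SD over genes 0.28, beside 0.0039 and 0.55 over all genes. E3 was above T9 for 48 genes and below for 23. No subunit gene was 2-fold apart, beside 5.79% of all genes; this pair has 1 array on each side and no test. Among the 67 genes detected on all arrays the difference ran from -0.56 for Ndufs4 to 0.86 for Ndufb9, which had 261 in E3 against 177 in T9. Cox4i2 was detected in T9 only. Its E3 minus T9 value of -0.73 entered the median and SD over the 72 genes, but it compares T9 with background. The X-linked Cox7b lay at 0.71, while the other X-linked genes Ndufa1 and Ndufb11 lay at 0.07 and -0.06.

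Other mitochondrial genes gave the setting of the chain. None of the lists below held a gene past the limma threshold. For their counts at an unadjusted limma p under 0.05, the share over all tested probes was 23.2%. For their counts by sign, 4093 of all 8688 named genes lay below 0 and 4595 above. Of the 13 subunits encoded by mitochondrial DNA, 0 had a probe, so they were not analysed here. Electron carriers and related proteins had a median of -0.15 over 9 genes, with 7 below 0 and 0 at an unadjusted limma p under 0.05. Among them, cytochrome c1 (Cyc1), the complex III subunit that hands electrons to cytochrome c, lay at -0.29. The mitochondrial ribosome, which translates the subunits encoded there, had a median of 0.11 over 71 genes, with 43 above 0. Its members at an unadjusted p under 0.05 were Mrpl23 (0.96), Mrpl27 (0.90) and Mrps6 (0.80) above 0 and Mrps24 (-0.85) below.

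The citric acid cycle, which supplies NADH and succinate, had a median of -0.12 over 13 genes, of which 2 were 2-fold apart, beside 19.2% of all genes. Idh2, the NADP-dependent isocitrate dehydrogenase, had 358 in E3 and 349 in T9, compared with 822 in OG2, a difference of -1.48 ± 0.25 (SE) with a limma adjusted p of 0.0880. Idh3a, a subunit of the NAD-dependent enzyme, had 316 in E3 and 306 in T9, compared with 179 in OG2, a difference of 1.04 ± 0.25 (SE) with a limma adjusted p of 0.133. The EpiSC arrays lay together on one side of OG2 for either gene. Ogdh lay at -0.79 and Mdh2 at -0.93. At an unadjusted limma p under 0.05, 1 gene of the 13 was higher (Idh3a) and 2 were lower (Idh2 and Ogdh), beside 23.2% of all tested probes.

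Of the genes that let pyruvate into the cycle, 7 were tested, with a median of 0.45. Only Pdk1 was at an unadjusted limma p under 0.05, beside 23.2% of all tested probes. Pdk1, the kinase that switches pyruvate dehydrogenase off, had 829 in E3 and 782 in T9, compared with 329 in OG2. Both EpiSC arrays were above OG2, by 1.40 ± 0.25 (SE) or 2.63-fold, with a limma adjusted p of 0.0921. Among regulators of mitochondrial biogenesis and of mitochondrial DNA the median was -0.22 over 13 genes. The EpiSC lines took opposite signs here, with a median of 0.28 for E3 minus OG2 and -0.33 for T9 minus OG2. Of the 13, 3 were 2-fold or more higher in E3 than in T9, while 5.79% of all genes were 2-fold apart either way. Gabpa, the DNA-binding part of GABP, lay at -0.88 and the mitochondrial RNA polymerase gene Polrmt also at -0.88. They were the 2 members of this list at an unadjusted limma p under 0.05, beside the same 23.2%. Nrf1 lay at -0.20, Esrra at 0.13 and Tfam, which packages mitochondrial DNA, at 0.40. Esrra had 209 in E3 and 139 in T9, compared with 153 in OG2, so the EpiSC lines lay on opposite sides of OG2. The membrane carriers tested, 5 in number, had a median of -0.33 with 0 at an unadjusted limma p under 0.05, and the phosphate carrier Slc25a3 lay at -0.47.

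**Figure D5:**
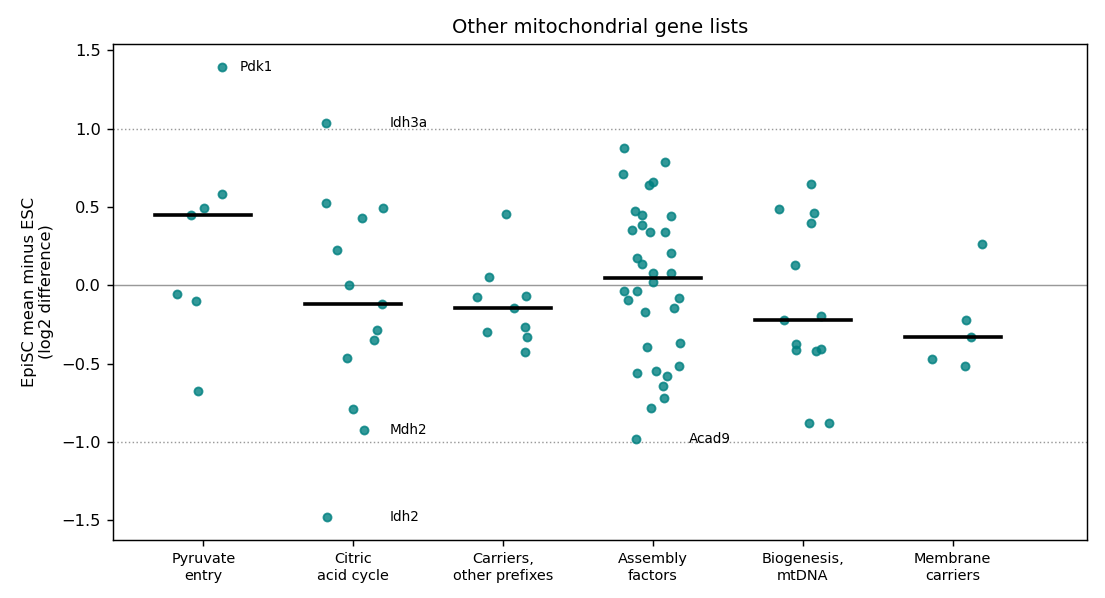
EpiSC minus ESC difference (log2) of each tested gene in the lists of other mitochondrial genes apart from the mitochondrial ribosome, 1 point per gene, with the list median as a bar and 2-fold as dotted lines. The citric acid cycle and pyruvate lists reach past 1 on the log2 scale, through Idh2, Idh3a and Pdk1.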

How the data were processed

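Total RNA (400 ng, 12 h of in vitro transcription) of each line was hybridised to 1 Illumina bead array, per the labels' protocols. The signal intensity and detection p-value of each probe are as deposited by the authors, per the file headers; intensities were linear and neither background-subtracted nor normalized. BeadStudio was used per the submitters' processing notes, in a version not given in the sources used here. The header of the ESC array writes the line's name as O2. The authors also deposited processed intensity values on a linear scale, by a normalization not given in the sources used here. These had column medians of 81.0, 80.8 and 80.8 for E3, T9 and OG2 and were used as an alternative.

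Signals were background-corrected with limma 3.58.1 (R 4.3.3; nec, from the detection p-values, offset 16), taken to log2 and quantile normalized. Because of the offset, differences of dim probes are understated. A probe entered the test when its detection p was under 0.01 on 1 array or more. Testing used lmFit and eBayes (two-sided, Benjamini-Hochberg over 12603 probes, threshold 0.05); a gene was its tested probe with the highest mean level, 8688 genes in all. The test was checked on simulated data. Intervals are limma's, unadjusted. With 2 arrays against 1, an exact permutation test cannot go below 0.333 and was not used. Where a side was not above background, the fold is a bound against the higher of the lowest detected level and the probe's own level. Probe names came from the platform's probe table (23978 with 1 symbol, 0 with several, 1719 with none), of which RefSeq held 23962 and changed 0.

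Members, lists and the rule for named genes (all members, in depth the 2 highest and 2 lowest per complex, those 2-fold apart, those detected on some arrays, those with discordant probes, and isoform pairs) were chosen with earlier results of these data known. Ndufs1 and the other genes without a detected probe entered no median. Alternatives were other background corrections, scalings, filters, probe rules, a mean-variance trend and leaving out each EpiSC line.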

Additional observations from a re-analysis of the deposited data

How the results depend on the processing

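No member probe passed the limma threshold under any of the 8 alternatives that gave a test, while calls over all probes ran from 0 (no detection filter, and the authors' processed table) to 344 (cyclic loess), with 183 without background correction, 98 with an offset of 50, 296 with median scaling, 93 on probes detected on all 3 arrays and 256 with a trend. The complex IV median stayed below 0 under all 11 alternatives, between -0.58 and -0.26. The median over all subunits was -0.010 with median scaling and -0.20 with cyclic loess, and -0.17 to -0.094 leaving out either EpiSC line. The complex I median was 0.0072 without background correction, 0.015 with an offset of 50, 0.055 with median scaling, 0.021 without the detection filter, 0.045 in the authors' processed table, 0.039 with Ndufa4 moved to complex IV (added after seeing the data) and 0.0034 to 0.0082 leaving out either EpiSC line. It took the opposite sign with cyclic loess (-0.068) and on probes detected on all 3 arrays (-0.0013). The complex II median took the opposite sign with median scaling (0.0051) and without T9 (0.14, against -0.057 without E3). The complex III median was -0.15 with median scaling, -0.13 without the detection filter, and -0.35 to -0.18 leaving out either line, and that of complex V -0.031 with median scaling and -0.26 to -0.16 leaving out either line. The cause of these moves was not tested. Subunit genes 2-fold apart between EpiSC and ESC numbered 4 in the authors' processed table, 1 with the mean over probes of a gene and 2 to 3 leaving out either line, and between E3 and T9 they numbered 3 in the authors' processed table. Of 315 values of 32 named genes under the alternatives, 303 kept their sign, of which 61 moved by over 1.5 times, and 12 values of 8 genes took the opposite sign. Without leaving out a line they were Atp5g2 (0.037), Ndufa4 (0.027) and Sdhd (0.0051) with median scaling, and Sdhb with cyclic loess (-0.027) and as the mean over probes (-0.12). Leaving out either line gave -0.052 to 0.31 for Atp5d, -0.057 to 0.14 for Sdhb, -0.26 to 0.19 for Atp5g2, -0.66 to 0.059 for Cox7b, -0.16 to 0.22 for Ndufab1, -0.34 to 0.25 for Sdhd and -0.10 to 0.29 for Uqcrh. Ndufv3 was 0.87 as the mean over its probes, and Cox8c ran from -1.58 to -0.39. Leaving out E3 or T9 leaves 1 array a side and no test. No paired analysis was possible because the ESC group has 1 array and the labels carry no shared replicate numbers. Signal over background limits Cox8c, Cox4i2, Ndufab1, Ndufb4, Ndufb11 and the dimmest Atp5j probe, which were detected on some arrays only.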
